A study of Mus musculus with 6 samples.

Results

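Aminoacyl-tRNA synthetases, the enzymes that load each tRNA with its amino acid, were followed as 37 genes of the 54532 in a deposited RNA-seq table of mouse macrophages. The genes were chosen by symbol, with earlier results of these data known. Names ending in 2 were counted as mitochondrial, which gave 17 genes, and the other 20 were counted as cytosolic. All 37 were in the table, 36 under the listed symbol and methionyl-tRNA synthetase under its older symbol Mars. Tarsl2 falls among the 17 by its ending, although it is a threonyl-tRNA synthetase-like gene and not named for mitochondria. Its level was too low for the main test, and no member was called, so its placing could not alter the counts of calls.

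The cells were primary bone marrow-derived macrophages, grown from mouse marrow, in 2 groups of 3 libraries labelled NSUN2-KO and NC. NSUN2 places 5-methylcytosine on tRNAs and other RNAs. Both groups had received LPS and IFN-γ, the stimuli for the inflammatory M1 state, and unstimulated cells were not analysed here. The labels give neither how the knockout was made, nor what NC stands for, nor the age of the mice. The labels call the libraries biological replicates without naming the animal behind each, so p-values measure the spread between these samples. The series' own account of its testing mentions 2 replicates per condition, while the table holds 3 columns in each group, and all 3 were used.

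A synthetase first joins its amino acid to AMP at the cost of ATP and then passes it to the end of the matching tRNA, which the ribosome reads. Mitochondria translate their own mRNAs with a separate set of synthetases, which are encoded in the nucleus and imported. In the cytosol several of the enzymes sit together in the multi-synthetase complex, held by scaffold proteins, while others act alone. Several of the cytosolic genes are known as targets of ATF4, the transcription factor of the amino acid response. Tryptophanyl-tRNA synthetase (Wars) is known for its induction by IFN-γ.

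Libraries held 35019033 to 40105614 reads in NSUN2-KO and 38516800 to 45636131 reads in NC. Nsun2 measured 0.863 to 1.36 FPKM in NSUN2-KO libraries, against 1.84 to 2.04 FPKM in NC libraries, where FPKM is reads per kilobase of gene, scaled to the library's assigned reads. Nsun2 fell by 0.51 on the log2(FPKM + 1) scale (limma adjusted p = 0.0228), and with no filter on low values its adjusted p was 0.113. Sex-linked genes also separated the groups. Ddx3y, Eif2s3y, Uty and Kdm5d had 0 reads in each NSUN2-KO library and between 316 and 1587 reads in each NC library, and Xist averaged 30.6 FPKM in NSUN2-KO and 14.5 FPKM in NC. This difference accompanies every comparison below and cannot be told apart from the genotype. Of the macrophage markers, 8 of 8 were tested, and 1 rose and 3 fell at a limma adjusted p below 0.05. Among all tested genes 8.49% were called at that level. The log2 fold change was positive for 4 of the 8 macrophage markers, with a median of -0.05. Lyz2, the macrophage lysozyme, averaged 1163 FPKM in NSUN2-KO and 1736 FPKM in NC. Neutrophil markers summed to 79.8 to 83.7 FPKM in NSUN2-KO libraries and 98.9 to 106.8 FPKM in NC libraries, with 3 of 5 tested genes lower, 10 listed and Elane at 0 reads throughout. Of 7 dendritic cell markers 2 were tested and Ccr7 rose. Fibroblast markers summed to 0.415 to 0.508 FPKM in NSUN2-KO libraries and 1.38 to 1.45 FPKM in NC libraries, with 0 of 4 above the filter. No marker listed for T and NK cells, B cells, erythroid cells, mast cells or proliferating cells averaged 1 FPKM either. Their part in the values below was not tested, and in bulk RNA fewer cells of a type and less RNA per cell cannot be told apart.

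No synthetase passed the test between NSUN2-KO and NC. The 24 members with a mean of at least 1 FPKM were tested with limma among 9443 genes, and at an adjusted p below 0.05 the called members numbered 0 of 19 cytosolic and 0 of 5 mitochondrial ones. Across all tested genes 8.49% were called, 4.19% higher and 4.3% lower in NSUN2-KO. With limma voom on recovered reads, 0 members were called as well. At an unadjusted p below 0.05 there were 3 members, Gars, Dars and Wars, where 25.5% of all tested genes reached that level. The 24 log2 fold changes lay between -0.14 for Rars2 and 0.18 for Dars, and 16.7% of all tested genes had a change larger in size than that of Dars. Their 95% intervals together spanned -0.34 to 0.36. The median size of change, regardless of sign, was 0.06 for the members and 0.08 for all tested genes. Replicates spread by a median coefficient of variation of 4.72% within groups for the tested members, against 6.02% for all tested genes.

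**Figure D1:**
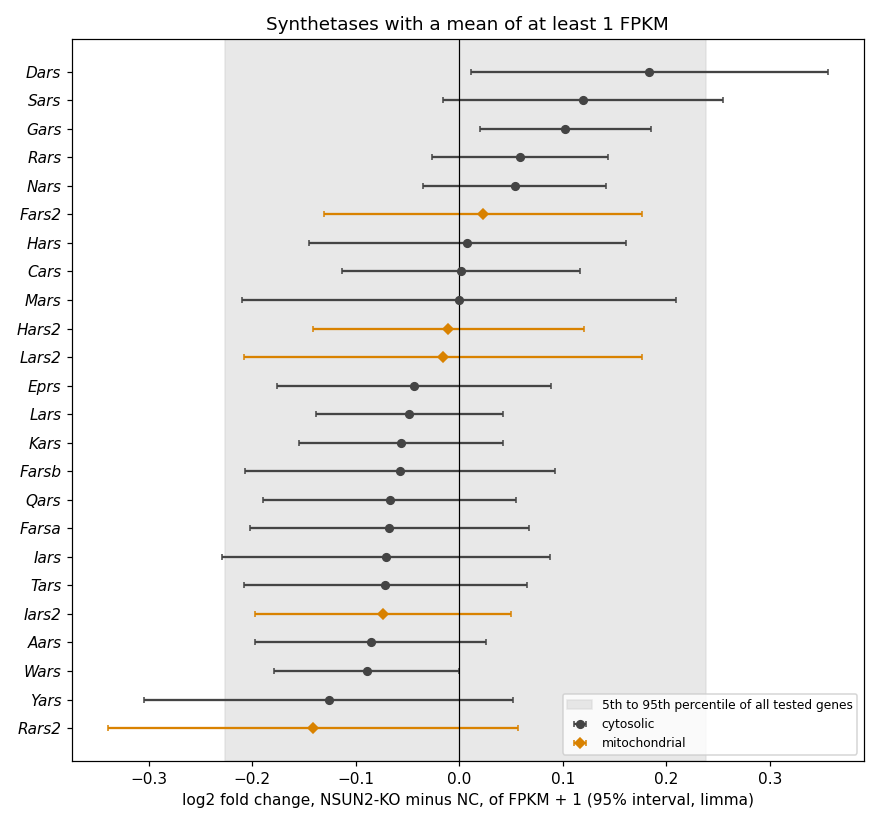
Log2 fold change of FPKM + 1, NSUN2-KO minus NC, for the 24 tested synthetases, with points for the limma estimate and bars for its 95% interval. The estimates lie between -0.14 and 0.18, and no member reached an adjusted p below 0.05.

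Estimates were more often negative than positive. Of the 19 cytosolic members, 7 had a positive and 12 a negative log2 fold change, with a median of -0.05. Of the 5 mitochondrial members, 1 was positive and 4 were negative, with a median of -0.02. All tested genes had a median of -0.01, and 51.8% were negative. With no filter, the medians over all 20 cytosolic and all 17 mitochondrial members were -0.05 and -0.01. In 6 of the 24 tested members, or 25.0%, the NSUN2-KO and NC values did not overlap, against 31.1% of all tested genes. Gars and Dars were the 2 with all NSUN2-KO values above the NC values, and Wars, Lars, Iars2 and Yars were the 4 with all of them below.

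Glycyl-tRNA synthetase (Gars) and lysyl-tRNA synthetase (Kars) serve both compartments, each from 1 gene. Gars (ENSMUSG00000029777, GRCm38 chromosome 6, 55038007 to 55079500, plus strand) measured 23.7, 24.4 and 23.5 FPKM in NSUN2-KO replicates 1 to 3, against 21.7, 22.7 and 22.1 FPKM in NC replicates 1 to 3. Every NSUN2-KO library lay above every NC library, by a mean of 23.9 ± 0.474 against 22.2 ± 0.495 FPKM (SD, n = 3 libraries each). The log2 fold change was 0.10 (SE 0.04, 95% interval 0.02 to 0.18, limma adjusted p = 0.122), and over the alternatives the adjusted p ran from 0.0969 to 0.283. Kars (chromosome 8, 111993443 to 112011323, minus strand) measured 13.8, 14.1 and 14.5 FPKM in NSUN2-KO, against 15.0, 15.2 and 14.2 FPKM in NC. The groups overlapped through NSUN2-KO replicate 3 and NC replicate 3, with a log2 fold change of -0.06 (interval -0.15 to 0.04).

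Wars was the most abundant synthetase in every library. It lies on chromosome 12 from 108860030 to 108894174 on the minus strand (ENSMUSG00000021266). Wars measured 66.7, 66.7 and 65.2 FPKM in NSUN2-KO, against 67.9, 74.1 and 69.7 FPKM in NC, on 8067 to 11703 reads per library. All 3 NSUN2-KO values were below all 3 NC values, at means of 66.2 ± 0.873 FPKM in NSUN2-KO and 70.6 ± 3.23 FPKM in NC, so that NSUN2-KO held 93.8% of the NC level. The log2 fold change was -0.09 (SE 0.04, interval -0.18 to -0.00020) with a limma p of 0.0496 before adjustment and an adjusted p of 0.195. It was -0.05 without NC replicate 2 and -0.04 after correction for GC content and length, and the adjusted p ran from 0.126 to 0.431 over the alternatives. Wars made up 23.8, 24.1 and 23.4% of the summed cytosolic FPKM in NSUN2-KO libraries and 24.6, 26.1 and 24.9% in NC libraries.

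Among the other synthetases that act outside the complex, Nars, the asparaginyl enzyme, came next in abundance. Nars measured 45.4, 44.0 and 44.4 FPKM in NSUN2-KO, against 44.0, 40.9 and 43.9 FPKM in NC, and its log2 fold change was 0.05 (interval -0.04 to 0.14). Aars, the alanyl enzyme, measured 19.7, 17.8 and 19.4 FPKM in NSUN2-KO, against 19.4, 20.6 and 20.5 FPKM in NC. Its log2 fold change was -0.09 (SE 0.05, interval -0.20 to 0.03, limma adjusted p = 0.314), and NSUN2-KO replicate 2 was the lowest library. Without that library the estimate for Aars was -0.04. Sars, the seryl enzyme, measured 17.6, 15.4 and 17.4 FPKM in NSUN2-KO, against 15.3, 14.7 and 16.1 FPKM in NC. Here NSUN2-KO replicates 1 and 3 stood above all NC libraries and replicate 2 lay among them. The log2 fold change of Sars was 0.12 (SE 0.06, interval -0.02 to 0.25, limma adjusted p = 0.249). Over the alternatives the estimate for Sars ran from 0.09 without NSUN2-KO replicate 1 (limma adjusted p = 0.509) to 0.18 without NSUN2-KO replicate 2 (limma adjusted p = 0.0957). Yars, the tyrosyl enzyme, was the least abundant tested member, at 1.26, 1.15 and 1.45 FPKM in NSUN2-KO, against 1.52, 1.46 and 1.48 FPKM in NC. Its values did not overlap, with NSUN2-KO replicate 3 close to NC, and its log2 fold change was -0.13 (SE 0.08, interval -0.30 to 0.05, limma adjusted p = 0.357). Without NSUN2-KO replicate 2 the estimate for Yars was -0.08.

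The remaining free enzymes overlapped between groups. Hars, for histidine, measured 11.6, 13.3 and 12.4 FPKM in NSUN2-KO, against 11.7, 13.5 and 11.9 FPKM in NC. Cars, for cysteine, measured 9.58, 8.70 and 8.76 FPKM in NSUN2-KO, against 8.9996, 9.22 and 8.77 FPKM in NC. Their log2 fold changes were 0.01 for Hars and 0.00 for Cars. Farsa and Farsb, the catalytic and the partner subunit of the phenylalanyl enzyme, had log2 fold changes of -0.07 and -0.06. Farsa measured 5.25, 5.60 and 5.10 FPKM in NSUN2-KO, against 5.24, 5.72 and 5.90 FPKM in NC. Farsb measured 2.65, 2.97 and 3.02 FPKM in NSUN2-KO, against 3.08, 2.87 and 3.16 FPKM in NC. The lowest NSUN2-KO library was replicate 3 for Farsa and replicate 1 for Farsb. Tars, for threonine, measured 3.28, 3.54 and 3.12 FPKM in NSUN2-KO, against 3.48, 3.46 and 3.64 FPKM in NC. Vars, for valine, was the 1 cytosolic member under the filter, at 0.599, 0.478 and 0.541 FPKM in NSUN2-KO, against 0.507, 0.526 and 0.460 FPKM in NC.

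**Figure D2:**
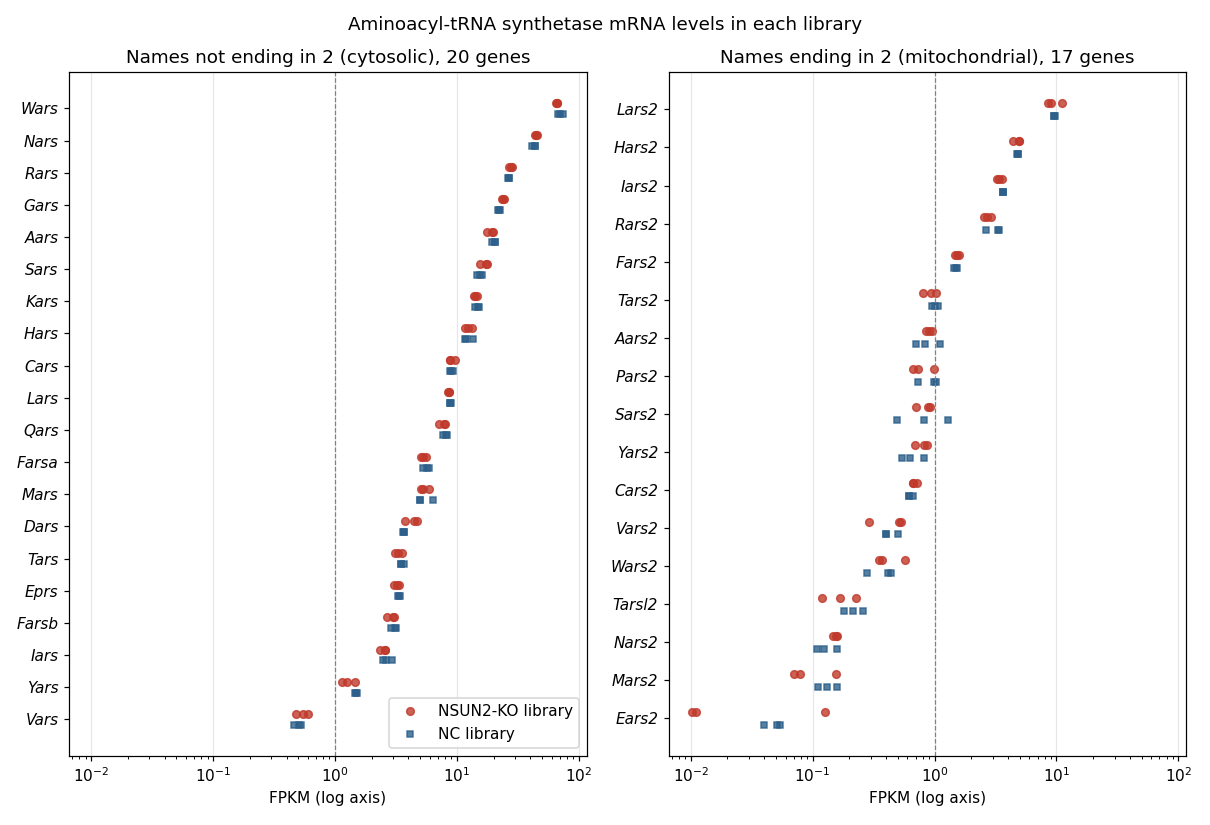
FPKM of each synthetase in each library on a log axis, with NSUN2-KO and NC libraries as separate symbols cytosolic and mitochondrial genes in separate panels and a dashed line at the filter of 1 FPKM. Cytosolic genes run to 74.1 FPKM for Wars, and of the mitochondrial genes only Lars2 averaged above 5 FPKM.

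The 8 enzymes of the multi-synthetase complex were all tested, 2 had a positive log2 fold change, and their median was -0.05. Their summed level was 72.7 to 74.8 FPKM in NSUN2-KO libraries and 72.6 to 74.0 FPKM in NC libraries. Dars, the aspartyl enzyme (ENSMUSG00000026356, chromosome 1, 128363707 to 128417368, minus strand), had the largest positive estimate, although that of Sars was larger after correction for GC content and length and without NSUN2-KO replicate 2. Dars measured 4.47, 4.72 and 3.76 FPKM in NSUN2-KO, against 3.65, 3.64 and 3.70 FPKM in NC. NSUN2-KO replicates 1 and 2 lay well above NC and replicate 3 just above it. The means were 4.31 ± 0.50 FPKM in NSUN2-KO and 3.67 ± 0.0331 FPKM in NC, and the log2 fold change was 0.18 (SE 0.07, interval 0.01 to 0.36, limma adjusted p = 0.171). Counting error alone is 3.83% for Dars, so its NC SD understates the spread to be expected. The estimate for Dars was 0.26 without NSUN2-KO replicate 3 (limma adjusted p = 0.0501), 0.13 without NSUN2-KO replicate 2 (limma adjusted p = 0.365), and 0.12 after correction for GC content and length (limma adjusted p = 0.310).

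Rars, for arginine, was the most abundant enzyme of the complex, at 27.7, 26.8 and 28.5 FPKM in NSUN2-KO, against 26.7, 26.0 and 26.9 FPKM in NC. Its log2 fold change was 0.06 (interval -0.03 to 0.14), and NSUN2-KO replicate 2 lay within the NC range. Lars, for leucine, measured 8.48, 8.53 and 8.55 FPKM in NSUN2-KO, against 8.96, 8.74 and 8.84 FPKM in NC. The Lars values did not overlap and were the tightest of the tested members, with a coefficient of variation of 0.939% within groups. Counting error alone is 2.75% at its reads, so the 0.939% understates the spread to be expected. The log2 fold change of Lars was -0.05 (interval -0.14 to 0.04, limma adjusted p = 0.491). Qars, for glutamine, measured 7.15, 7.94 and 7.80 FPKM in NSUN2-KO, against 7.71, 8.24 and 8.16 FPKM in NC. Mars, for methionine, measured 5.30, 5.08 and 5.87 FPKM in NSUN2-KO, against 4.98, 6.35 and 4.99 FPKM in NC. For Mars a single NC library, replicate 2, lay above all others. Eprs joins the glutamyl and the prolyl enzyme in 1 protein, and measured 3.38, 3.03 and 3.24 FPKM in NSUN2-KO, against 3.38, 3.26 and 3.40 FPKM in NC. Iars, for isoleucine, measured 2.36, 2.57 and 2.56 FPKM in NSUN2-KO, against 2.93, 2.60 and 2.49 FPKM in NC. The log2 fold changes were -0.07 for Qars, -0.00 for Mars, -0.04 for Eprs and -0.07 for Iars, with overlapping groups in each.

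Of the 17 mitochondrial members 5 passed the filter, and Lars2, the leucyl enzyme, was the most abundant. Lars2 (chromosome 9, 123366927 to 123462666, plus strand) measured 9.10, 8.52 and 11.1 FPKM in NSUN2-KO, against 9.64, 9.62 and 9.64 FPKM in NC. The NSUN2-KO libraries spread on both sides of the NC libraries, with SDs of 1.35 FPKM in NSUN2-KO and 0.00749 FPKM in NC. Counting error alone is 1.54% for Lars2, so the NC SD understates the spread to be expected. The log2 fold change was -0.02 (interval -0.21 to 0.18). The estimate for Lars2 ran from -0.12 without NSUN2-KO replicate 3 to 0.06 without NSUN2-KO replicate 2. Rars2, the arginyl enzyme (chromosome 4, 34614957 to 34660167, plus strand), had the lowest estimate at a pseudocount of 1, although Yars or Wars was lower in several alternatives, among them Yars with a pseudocount of 0.1, with TPM and with voom. Rars2 measured 2.53, 2.90 and 2.70 FPKM in NSUN2-KO, against 3.39, 3.29 and 2.64 FPKM in NC. NC replicate 3 lay among the NSUN2-KO libraries, and the log2 fold change was -0.14 (SE 0.09, interval -0.34 to 0.06, limma adjusted p = 0.351). It was -0.23 without NC replicate 3 and -0.09 without NC replicate 1.

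Iars2, for isoleucine (chromosome 1, 185284726 to 185329396, minus strand), measured 3.40, 3.27 and 3.57 FPKM in NSUN2-KO, against 3.65, 3.66 and 3.62 FPKM in NC. The values did not overlap, and the log2 fold change was -0.07 (SE 0.05, interval -0.20 to 0.05). Counting error alone is 2.84% for Iars2, so its NC SD of 0.0241 FPKM understates the spread to be expected. Hars2, for histidine, measured 4.96, 4.39 and 4.95 FPKM in NSUN2-KO, against 4.81, 4.78 and 4.82 FPKM in NC. Fars2, for phenylalanine, measured 1.54, 1.48 and 1.58 FPKM in NSUN2-KO, against 1.51, 1.44 and 1.53 FPKM in NC. Hars2 and Fars2 overlapped between groups, with log2 fold changes of -0.01 and 0.02.

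The 12 mitochondrial members under the filter were measured on 2 to 301 reads per library. Tars2, for threonine, came nearest to the filter, at 0.811, 1.04 and 0.929 FPKM in NSUN2-KO, against 1.01, 0.948 and 1.07 FPKM in NC. Aars2, for alanine, measured 0.898, 0.849 and 0.961 FPKM in NSUN2-KO, against 0.700, 1.10 and 0.831 FPKM in NC. Neither separated the groups. Pars2, for proline, measured 0.989, 0.663 and 0.731 FPKM in NSUN2-KO, against 0.727, 1.02 and 0.999 FPKM in NC. Yars2, for tyrosine, measured 0.688, 0.815 and 0.871 FPKM in NSUN2-KO, against 0.822, 0.624 and 0.543 FPKM in NC. With no filter these were the lowest and highest log2 fold changes of the members under it, -0.10 for Pars2 and 0.11 for Yars2. Cars2, for cysteine, was steadier, at 0.722, 0.670 and 0.662 FPKM in NSUN2-KO, against 0.618, 0.622 and 0.671 FPKM in NC. Sars2, for serine, ran from 0.699 to 0.916 FPKM in NSUN2-KO and from 0.492 to 1.28 FPKM in NC, so the NC libraries alone spanned the whole range. Vars2, Wars2, Tarsl2, Nars2 and Mars2 measured at most 0.570 FPKM in any library. Ears2, the mitochondrial glutamyl enzyme, measured 0.126, 0.0111 and 0.0103 FPKM in NSUN2-KO, against 0.0402, 0.0509 and 0.0545 FPKM in NC, on 2 to 26 reads. At that depth a difference in Ears2 was not detectable. None of the 13 members under the filter had groups that did not overlap, and with no filter 0 of 37 members were called.

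Summed levels of the sets differed little. The 20 cytosolic members summed to 279.97, 276.8 and 278.98 FPKM in NSUN2-KO, against 276.1, 283.8 and 280.2 FPKM in NC. The 17 mitochondrial members summed to 27.8, 26.8 and 30.2 FPKM in NSUN2-KO, against 28.7, 29.2 and 29.0 FPKM in NC. NSUN2-KO thus held 99.5% of the NC mean for the cytosolic set and 97.6% for the mitochondrial set, with NSUN2-KO libraries on both sides of the NC range for the mitochondrial sum. The mitochondrial set made up 9.03, 8.84 and 9.78% of both sums in NSUN2-KO libraries and 9.43, 9.34 and 9.38% in NC libraries. These shares follow the naming rule. Gars and Kars, which serve both compartments and averaged 23.0 and 14.5 FPKM over all libraries, are in the cytosolic sum only. Tarsl2 is in the mitochondrial sum by its name. The median member had 8.26 FPKM in the cytosolic set and 0.848 FPKM in the mitochondrial set, and means of at least 10 FPKM were found for 8 cytosolic and 0 mitochondrial members. The 5 most abundant members, Wars, Nars, Rars, Gars and Aars, kept that order in all 6 libraries. Levels across genes depend on the gene length used, and the deposited one was 0.959 to 3.80 times the longest coding transcript of these genes, with a median of 1.48. Scaled by that transcript, an alternative chosen after seeing the data, 12 cytosolic members and 1 mitochondrial member, Lars2 at 27.3 FPKM, reached 10 FPKM, and Aars at 31.6 FPKM stood above Gars at 30.2 FPKM.

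Cytosolic and mitochondrial enzymes for the same amino acid could be set against each other in 17 pairs, where Eprs and Fars2 each enter 2 pairs. The ratio is of FPKM values, so it is per length. The cytosolic gene was higher in all 6 libraries in 15 pairs, and more than 10-fold higher in all 6 in 7 of them, for asparagine, tryptophan, glutamate, methionine, alanine, serine and cysteine. By transcript length 7 pairs again passed that mark, with cysteine out and Eprs with Pars2, for proline, in. The ratio of Nars to Nars2 was 290.1 ± 7.76 in NSUN2-KO and 338.9 ± 77.1 in NC by deposited length. By transcript length it averaged 150.9 in NSUN2-KO and 176.2 in NC. Counting error alone is 16.0% for Nars2, so the difference between these SDs was not read further. Nars2 had 29 to 51 reads per library, Mars2 30 to 69 and Ears2 2 to 26, so ratios over these genes are imprecise. Valine was nearly even, at 1.28 ± 0.320 in NSUN2-KO and 1.15 ± 0.104 in NC.

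Leucine and isoleucine ran the other way. The ratio of Iars to Iars2 was 0.695, 0.786 and 0.715 in NSUN2-KO, against 0.802, 0.710 and 0.690 in NC, so the mitochondrial gene was higher in every library. The ratio of Lars to Lars2 was 0.932, 1.00 and 0.771 in NSUN2-KO, against 0.930, 0.908 and 0.917 in NC. Only NSUN2-KO replicate 2 held slightly more Lars than Lars2. Scaled by transcript length, the cytosolic gene was higher in all 6 libraries in 14 pairs and the mitochondrial gene in 3, for leucine, isoleucine and the pair of Farsb with Fars2. Between groups, 1 of the 17 ratios did not overlap, that of Yars to Yars2, at 1.83, 1.41 and 1.66 in NSUN2-KO and 1.86, 2.34 and 2.72 in NC. Yars2 is under the filter, on 67 to 103 reads per library. How often ratios of other genes separate the groups was not worked out.

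**Figure D3:**
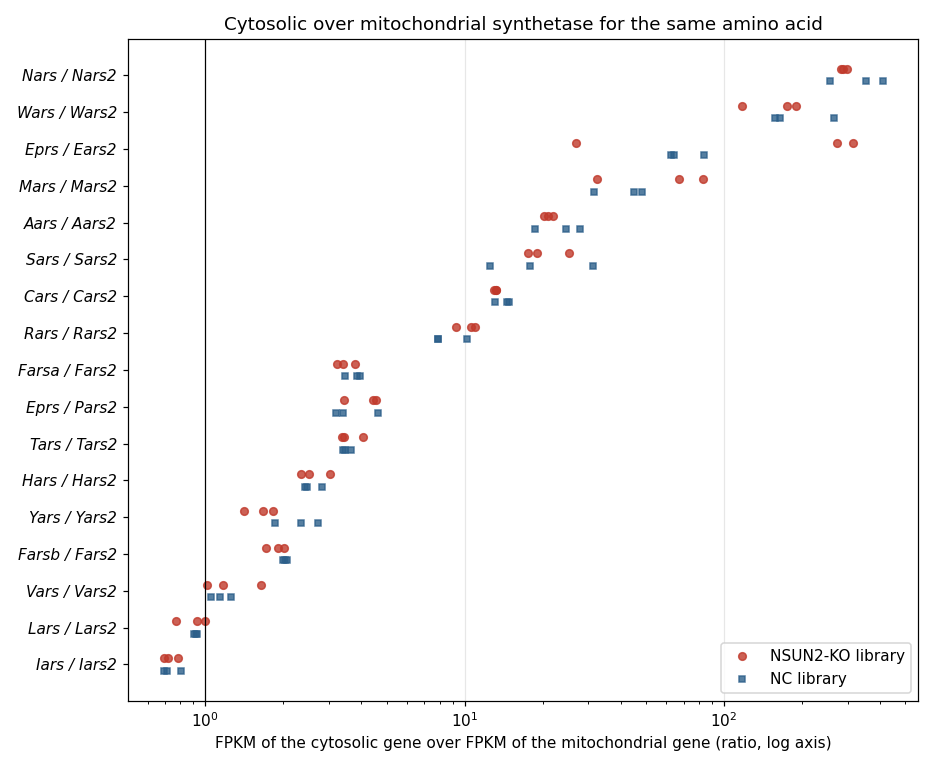
Ratio of the cytosolic to the mitochondrial synthetase for the same amino acid in each library, on a log axis, with a line at equal levels and the NSUN2-KO and NC libraries as separate symbols. The ratios run from 0.690 for isoleucine to 408.7 for asparagine, and the groups overlap in every pair but Yars with Yars2.

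Some exonic bases are shared with neighbouring genes. The sources used here do not say whether counting used the strand, so reads in shared exons cannot be assigned to a gene with certainty. Iars2 shares 2034 exonic bases, 22.9% of its exons, with Rab3gap2 on the opposite strand, which averaged 8.78 FPKM, so the level of Iars2 and its ratio to Iars are uncertain. Aars shares 1326 exonic bases with Exosc6 on the same strand, and Exosc6 is listed at 0 in every library. Hars and Hars2 lie head to head and share 195 exonic bases. Some low members share exonic bases with a more abundant neighbour. Cars2 shares 422 with Naxd (4.37 FPKM) and Ears2 shares 89 with Ubfd1 (2.69 FPKM), both on the opposite strand. Tarsl2 shares 120 with Tm2d3 (5.69 FPKM) on the same strand. The levels of these members, and the ratios over Cars2 and Ears2, are therefore uncertain too. Iars has a processed pseudogene, Gm4849, that is 96.0% identical over 1656 bases and averaged 0.0410 FPKM.

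Promoter windows were looked at because several cytosolic members are known as targets of ATF4, which binds the CARE motif TGATGNAA with a C/EBP partner. RefSeq windows of 250 bases before to 50 bases after the gene start (GRCm38.p6) were at hand for 28 of the 37 members, 13 cytosolic and 15 mitochondrial. Cars, Hars, Hars2, Lars, Nars, Pars2, Rars, Vars and Wars had none. Searched on both strands, the motif lay in the windows of 5 of 13 cytosolic members, Aars, Gars, Iars, Tars and Yars, and of 0 of 15 mitochondrial members, and 4.51% of the 27025 genes with a window held it. The windows of Gars, Aars and Yars are printed 5′ to 3′ on the plus strand, as 1 gene with higher values, 1 with overlapping values and 1 with lower values in NSUN2-KO. Capitals mark each match or its reverse complement.
Gars chr6:55037751-55038050: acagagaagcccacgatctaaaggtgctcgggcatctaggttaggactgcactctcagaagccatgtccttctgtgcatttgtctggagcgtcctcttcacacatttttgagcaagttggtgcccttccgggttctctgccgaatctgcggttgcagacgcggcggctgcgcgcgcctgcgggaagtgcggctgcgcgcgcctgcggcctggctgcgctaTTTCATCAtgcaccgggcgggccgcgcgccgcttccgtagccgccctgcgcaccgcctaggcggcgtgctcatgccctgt
Aars chr8:111033592-111033891: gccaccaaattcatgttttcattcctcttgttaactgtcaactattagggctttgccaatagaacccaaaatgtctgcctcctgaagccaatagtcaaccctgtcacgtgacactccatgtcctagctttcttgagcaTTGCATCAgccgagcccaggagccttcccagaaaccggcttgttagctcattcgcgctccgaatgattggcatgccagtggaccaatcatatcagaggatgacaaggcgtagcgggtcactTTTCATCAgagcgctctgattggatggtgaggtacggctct
Yars chr4:129189653-129189952: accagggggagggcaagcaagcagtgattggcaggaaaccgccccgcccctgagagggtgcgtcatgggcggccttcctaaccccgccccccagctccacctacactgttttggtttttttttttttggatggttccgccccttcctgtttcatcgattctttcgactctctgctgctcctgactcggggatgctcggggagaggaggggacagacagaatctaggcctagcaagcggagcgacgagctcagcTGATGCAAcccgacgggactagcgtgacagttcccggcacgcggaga
The match began 30 bases before the start in Gars, 112 bases before and at base 10 after the start in Aars, and at base 4 after the start in Yars, counted from the RefSeq start. The log2 fold changes of the 5 genes with a match were 0.10 for Gars, -0.09 for Aars, -0.07 for Iars, -0.07 for Tars and -0.13 for Yars, none of them called, so genes that share these letters had estimates of both signs.

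Other motifs were searched in the same windows and on both strands. The E-box CACGTG lay in 4 of 13 cytosolic windows (Aars, Farsb, Iars and Tars) and 1 of 15 mitochondrial windows (Ears2), against 8.09% of all genes. The ETS core CCGGAAG lay in 5 cytosolic windows (Farsa, Gars, Kars, Mars and Sars) and 4 mitochondrial windows (Cars2, Mars2, Rars2 and Sars2), against 9.93% of all genes. The interferon motifs were the GAS form TTCNNNGAA, in Aars, Kars and Nars2 against 9.55% of all genes, and the ISRE core, in Qars against 3.99%. The GAS and ETS matches in Kars overlap. The CRE motif TGACGTCA and the NRF1 motif, held by 2.03% and 1.07% of all genes, had no match in a member's window. Each match is a description of letters only.

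Genes that work beside the synthetases were not called either. Of 14 accessory genes of tRNA charging 8 were tested, 0 were higher and 0 lower, and their median log2 fold change was 0.02. Gatc, a subunit of the amidotransferase that completes mitochondrial glutaminyl-tRNA, measured 4.21, 5.04 and 4.52 FPKM in NSUN2-KO, against 4.92, 5.71 and 6.14 FPKM in NC. The groups overlapped through NSUN2-KO replicate 2 and NC replicate 1, and the log2 fold change was -0.24 (interval -0.43 to -0.04, limma adjusted p = 0.128). Its partner subunits Gatb and Qrsl1 were under 1 FPKM. The complex scaffolds Aimp1 and Aimp2 had log2 fold changes of 0.05 and -0.03, and the third scaffold, Eef1e1, was under 1 FPKM. Of 9 mitochondrial translation factors 8 were tested, 0 were called, and the median was 0.03. Among them Tufm, the mitochondrial elongation factor, averaged 12.5 ± 0.340 FPKM in NSUN2-KO and 12.2 ± 0.154 FPKM in NC.

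In the amino acid response list, 20 of 30 genes were tested, 1 rose and 1 fell, a share close to the 8.49% called among all tested genes, with a median log2 fold change of 0.02. Slc7a11, the cystine importer, averaged 22.7 ± 0.977 FPKM in NSUN2-KO and 14.8 ± 0.558 FPKM in NC (log2 fold change 0.59, limma adjusted p = 0.000623). Nupr1, a stress-induced chromatin protein, averaged 35.3 ± 3.32 FPKM in NSUN2-KO and 54.1 ± 1.58 FPKM in NC (log2 fold change -0.61, limma adjusted p = 0.0018). Atf4 itself averaged 112.4 ± 1.82 FPKM in NSUN2-KO and 111.6 ± 1.40 FPKM in NC (log2 fold change 0.01, interval -0.06 to 0.08). Ddit3, which encodes CHOP and whose transcript overlaps Mars by 68 exonic bases, averaged 27.5 ± 0.862 FPKM in NSUN2-KO and 27.4 ± 1.32 FPKM in NC. Asns, asparagine synthetase, averaged 1.79 ± 0.276 FPKM in NSUN2-KO and 1.56 ± 0.00537 FPKM in NC (log2 fold change 0.12, interval -0.08 to 0.32).

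Amino acid transporters supply the substrates of the synthetases, and 5 of the 10 tested among 16 changed, 3 higher and 2 lower. Among all tested genes 8.49% were called. Slc7a11, described above, is among the 3 higher genes and belongs to the amino acid response list as well. Slc7a2, an importer of arginine and lysine, averaged 86.9 ± 5.13 FPKM in NSUN2-KO and 56.3 ± 2.12 FPKM in NC (log2 fold change 0.61, limma adjusted p = 0.000623), while Kars and Rars for the same amino acids had -0.06 and 0.06. Slc38a2, a glutamine and neutral amino acid importer, rose by 0.27 (limma adjusted p = 0.0352), and Slc36a1, a lysosomal amino acid exporter, fell by 0.22 (limma adjusted p = 0.0329). Slc7a7, an exchanger of cationic amino acids chosen for naming after its values were seen, fell by 0.20 (limma adjusted p = 0.0408). The calls of Slc7a11, Slc7a2 and Nupr1 held in every alternative, and the largest adjusted p was 0.122 for Slc38a2, 0.119 for Slc36a1 and 0.129 for Slc7a7.

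Interferon-γ response genes were set beside Wars. Of 12 genes 11 were tested, 2 rose and 0 fell, where 8.49% of all tested genes were called. Their median log2 fold change was 0.00. Cxcl10, a T cell chemokine, rose by 0.26 (limma adjusted p = 0.00467). Ido1, which breaks down tryptophan, the amino acid that Wars charges, averaged 10.2 ± 0.873 FPKM in NSUN2-KO and 6.56 ± 0.842 FPKM in NC (log2 fold change 0.58, limma adjusted p = 0.00909). The largest adjusted p over the alternatives was 0.0587 for Cxcl10 and 0.0615 for Ido1. The log2 fold changes thus had different signs for Ido1 and for Wars, where the Wars estimate of -0.09 was not called.

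**Figure D4:**
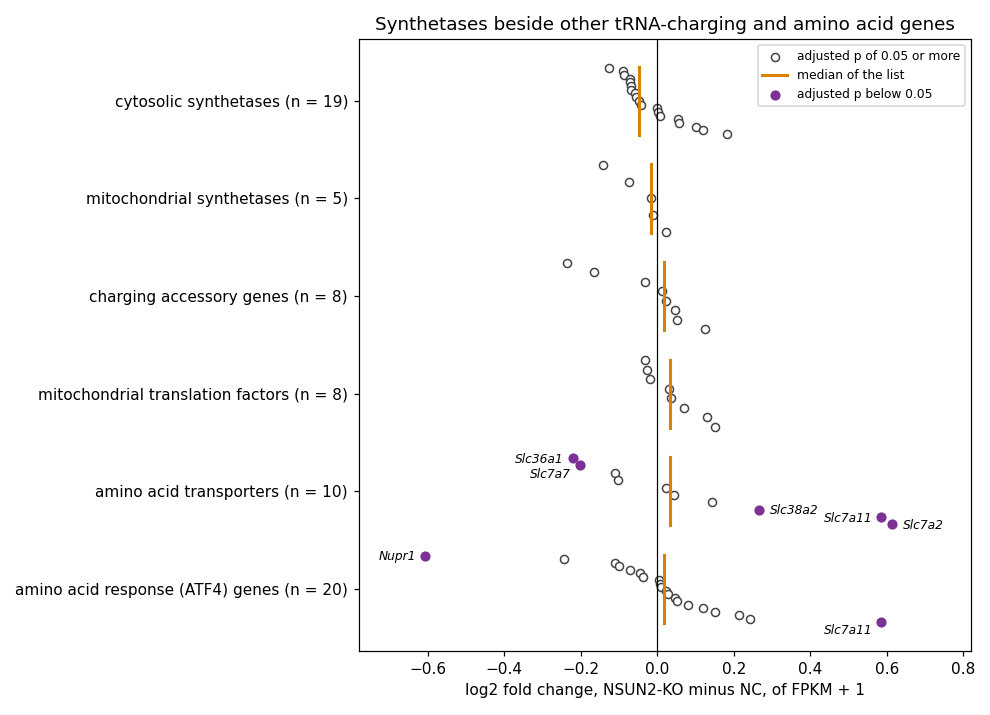
Log2 fold change of FPKM + 1, NSUN2-KO minus NC, for tested genes of 6 lists, with filled points at an adjusted p below 0.05 and a bar at the list's median. Filled points are absent from the synthetases, accessory genes and translation factors, and Slc7a11, Slc7a2 and Nupr1 stand farthest out.

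Base composition moved with the fold changes over all genes. Spearman's correlation between transcript GC content and log2 fold change was -0.385 over the tested genes, which share the 6 libraries and are not independent. Median GC content was 50% for the tested cytosolic members, 48.6% for the tested mitochondrial members and 49.6% for all tested genes. After correction of every library for GC content and length, 0 members were called.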

How the data were processed

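Mouse macrophage RNA was sequenced in 6 libraries, and the deposited table gives FPKM values per gene with gene lengths and GRCm38 positions. DESeq2 1.20.0, featureCounts 1.5.0-p3, HISAT2 2.0.5, fastp and CASAVA 1.8 appear among the tools, per the submitters' processing notes. How each was set, whether strand was used and which annotation release was counted, the sources used here do not give. Each column was matched to a sample title, with 0 columns unassigned. FPKM times gene length gave whole reads for 100% of values (tolerance 0.01 reads), at 35019033 to 45636131 reads per library. Libraries differed by a mean chi-square per gene of 5.66 to 11.6 within groups, so none were duplicates.

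Testing used limma 3.58.1 under R 4.3.3, with log2(FPKM + 1) as the measure, genes averaging 1 FPKM or more, a mean-variance trend and Benjamini-Hochberg adjustment over all tested genes, at 0.05. Fold changes are NSUN2-KO minus NC and understate changes of low genes. The test was also run on simulated reads with set fold changes. All of these were larger than the members' estimates, so the simulation does not cover changes of that size. Alternatives were pseudocounts of 0.1 and 5, other filters, no trend, median ratios, TPM, voom on recovered reads, a replicate block, a GC and length correction (loess, span 0.5), and leaving out each library. Members and lists were chosen with earlier results of these data known. All members could be named, and of each other list up to 4 tested genes by smallest p, with Atf4, Ddit3, Asns and the scaffold and amidotransferase genes. The symbol Ddit3 had 2 rows, and the 1 with signal was used. Promoter windows are RefSeq's. Exon overlaps, transcript lengths and GC content came from GENCODE vM21, and near-identical copies from BLAST 2.17.0 (at least 95% identity over 300 bases). Python 3.11.15, pandas 2.3.3 and matplotlib 3.10.9 were used.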

Additional observations from a re-analysis of the deposited data

How the results depend on the processing

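No synthetase was called in 374 fits of the 24 tested members under 16 alternatives, and the smallest adjusted p was 0.0501. The sign of the estimate changed in 15 of these fits, in 5 members close to 0. Mars gave 0.00061 with a pseudocount of 0.1, 0.0063 with median ratios, 0.0093 with TPM and 0.047 with the GC and length trend removed. Leaving out 1 library, the estimates ran from -0.051 to 0.098 for Mars, from -0.039 to 0.023 for Cars, from -0.037 to 0.066 for Hars, from -0.035 to 0.037 for Hars2 and from -0.12 to 0.056 for Lars2. The cytosolic median was -0.028 with a pseudocount of 5 and -0.00024 over genes of at least 5 FPKM, and without 1 library it ran from -0.051 to -0.037. The mitochondrial median, over 5 members, ran from -0.099 without NSUN2-KO replicate 3 to 0.037 without NSUN2-KO replicate 2. The count of called genes over the whole table, 802, was 265 with no filter, 526 with no trend and 1372 with voom. Without 1 library it ran from 270 to 595, and was 270 without NSUN2-KO replicate 1, 447 without NSUN2-KO replicate 2, 338 without NC replicate 2 and 287 without NC replicate 3. With the replicate number as a block the count was 351, with 0 members called. Same-numbered libraries did not deviate together (correlations of -0.0095, -0.030 and 0.0034), so no pairing by number was seen, which does not exclude one. The causes of the shifts between alternatives were not tested. Counting error is largest for Ears2, at 2 to 26 reads per library.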
